A study of Mus musculus with 4 samples.

Results

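Cycling T cells of inguinal fat were chosen by their messages for the division machinery and for the T cell receptor complex. A member had at least 1 unique molecular identifier (UMI, 1 counted RNA molecule) each of Top2a and Birc5 and at least 2 over Cd3e, Cd3d and Cd3g, with none of the B cell genes Cd79a and Ms4a1 or the macrophage gene C1qa. Of 26654 cell barcodes, 21249 passed a filter of more than 200 and fewer than 5000 genes and under 7.5% of UMIs from mitochondrial genes, 7456 of these were T cells by the CD3, B cell and macrophage criteria, and 870 were cycling T cells. They made up 11.7% of the T cells and 4.09% of the cells kept.

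The cells were live, single, eGFP+ cells sorted from the stromal vascular fraction of inguinal subcutaneous white fat of male ChATBAC-eGFP mice, in which a bacterial artificial chromosome with the choline acetyltransferase locus drives eGFP. Mice were 5 weeks old at the start and all spent 3 weeks at 30 °C, the temperature at which a mouse needs no extra heat. The 30 °C group then stayed there for 4 h, while the 4 °C group was moved to 4 °C for 4 h after a day at room temperature, a step the 30 °C group did not share, so the effects of both moves cannot be told apart. Each temperature had 2 libraries of 3′ single-cell RNA, each of 4 pooled mice. Since eGFP set the gate, the cells are T cells that carried the transgene's signal, and shares do not describe all T cells of the depot.

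A dividing T cell copies its DNA in S phase and separates it in mitosis, and the messages of each phase rise and fall with it. Top2a encodes topoisomerase II alpha, which untangles replicated chromosomes, and Birc5 encodes survivin, a subunit of the complex that steers chromosome segregation. Both are made mainly in G2 and mitosis, so a rule that needs both favours cells late in the cycle. Fat holds regulatory T cells, which carry the transcription factor Foxp3, and gamma-delta T cells, whose receptor uses the Trdc and Tcrg chains and many of which make IL-17.

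Many genes of G2 and mitosis share 2 short promoter elements, the cell cycle homology region (CHR, TTTGAA) and the CCAAT box. The 250 bases before the start of Top2a and of 2 further genes of G2 and mitosis that were tested below are shown to let the elements be seen, with CHR (TTTGAA, or TTCAAA where it lies on the other strand) and CCAAT (or ATTGG) in capitals. The coordinates, RefSeq GRCm38.p6, are chr11:99024190-99024439 for Top2a, chr2:172370571-172370820 for Aurka and chr11:40733438-40733687 for Hmmr, all on the minus strand.
Top2a: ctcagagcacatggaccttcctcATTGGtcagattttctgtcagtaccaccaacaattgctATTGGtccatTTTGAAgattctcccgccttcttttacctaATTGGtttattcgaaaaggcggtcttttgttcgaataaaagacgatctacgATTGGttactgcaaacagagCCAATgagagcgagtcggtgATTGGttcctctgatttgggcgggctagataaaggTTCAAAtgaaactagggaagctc
Aurka: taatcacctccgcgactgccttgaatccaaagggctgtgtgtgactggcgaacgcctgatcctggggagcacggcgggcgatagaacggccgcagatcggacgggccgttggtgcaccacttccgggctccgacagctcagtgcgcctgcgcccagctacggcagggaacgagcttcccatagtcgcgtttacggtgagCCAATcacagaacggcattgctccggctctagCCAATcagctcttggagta
Hmmr: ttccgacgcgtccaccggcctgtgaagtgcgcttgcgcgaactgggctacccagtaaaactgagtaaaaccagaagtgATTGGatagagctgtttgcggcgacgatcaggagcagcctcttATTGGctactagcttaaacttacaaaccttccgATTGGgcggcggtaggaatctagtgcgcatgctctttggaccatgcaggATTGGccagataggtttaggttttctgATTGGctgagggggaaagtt
The Top2a stretch held 2 CHR and 6 CCAAT matches, that of Aurka 0 and 2, and that of Hmmr 0 and 5. Birc5, the other gene of the rule, had 0 of either in its own 250 bases. Over windows of 300 bases (250 before and 50 after the start), a CHR match on either strand stood in 34 of 52 promoters of the G2 and mitosis list (65.4%) and in 17.9% of all 32851 promoters. For the S phase list the share was 17.6% of 34. CCAAT stood in 75.0% of the G2 and mitosis promoters, 67.6% of the S phase promoters and 37.4% of all. These are matches of letters, which may share a base where the 2 motifs abut, and not measured binding.

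The members were spread over all 4 libraries, with 267 and 235 at 30 °C and 235 and 133 at 4 °C (replicates 1 and 2 in this order throughout). Their UMIs summed to 5402045 and 4831814 at 30 °C, and at 4 °C to 4933167 and 2582286, so that 4 °C replicate 2 was the shallowest sum. A member held a median of 18817, 19880, 20907 and 18127 UMIs. T cells with no UMI of Top2a, Birc5 or Mki67, called non-cycling T cells here (4835 cells), held 5851.5, 5491, 6153 and 6032. Members were thus 3.01 to 3.62 times as deep as non-cycling T cells, and shares of cells with a UMI of a gene are given below also with cells reduced to equal depth.

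Near the thresholds, 77 members had a single Top2a UMI, 89 a single Birc5 UMI, 35 a single UMI of both and 21 a CD3 sum of 2. On the other side, 922 T cells had Top2a without Birc5 and 343 Birc5 without Top2a. A further 441 cells met every other criterion but had 5000 genes or more. Without that limit there were 1311 members. Scrublet, which scores doublets, marked 3 of the 870. Libraries shared 5 to 14 barcodes of kept cells a pair, and 1 barcode was shared between members.

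The label held for the division machinery and in part for the T lineage. The 3 proliferation markers outside the rule that were examined were nearly universal. Stmn1, a tubulin-binding protein, had a UMI in 96.6% of members, Pclaf, a partner of the replication clamp, in 94.0%, and Mki67, the Ki-67 antigen, in 94.9%. Stmn1 stood at 1794, 1795, 1934 and 1826 UMIs per 1000000 of the members' sum (CPM) and at 31 to 37.6 CPM in non-cycling T cells.

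Of the receptor chains, Trac, the constant part of the alpha chain, had a UMI in 741 of 870 members, and Cd3e in 722 (83.0%). The 148 members without Cd3e had a median CD3 sum of 8 UMIs against 34 over all members, and 65 of them had Trac. They carried Gata3, the transcription factor of type 2 cells, in 87.2% (76.1% over all members) and Il13, a type 2 cytokine, in 54.1% (110 of 870 over all members). Il17rb, the receptor for IL-25, was found in 50.7% of them (17.9% over all members), but Il1rl1, the IL-33 receptor, in 6.08% (18.5%). Trbc2, the constant part of a beta chain, was found in 92.6% (98.6%). Group 2 innate lymphoid cells share Gata3 and Il13 and lack a T cell receptor. Their list of 5 markers summed over all members to 161, 150, 257 and 225 CPM, with Gata3 its most abundant gene and none of the 5 at 0. In non-cycling T cells the list summed to 219, 189, 260 and 248 CPM. Whether the 148 members are such cells was not tested. Shares and several results that rest on these cells are therefore given also for the 722 members with a Cd3e UMI.

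Markers of other cells were low for some types and not for B cells. The list of 5 genes of developing T cells of the thymus summed to 10.0, 11.6, 15.4 and 16.7 CPM, nearly all from Cd1d1 (228 UMIs), an antigen-presenting molecule that B cells also make, while Dntt, Rag1 and Rag2 were at 0 in every library. The list of 4 stromal markers stood at 1.85, 3.73, 31.2 and 1.55 CPM. The value for 4 °C replicate 1 came mainly from Dcn, a matrix protein of fibroblasts, with 107 of its 108 UMIs in 1 cell. The list of 6 macrophage markers stood at 10.2, 6.0, 11.4 and 3.87 CPM. The list of 6 B cell markers stood at 345, 305, 321 and 421 CPM, although the rule set Cd79a and Ms4a1 to 0, and Ighm, an antibody heavy chain, was its most abundant gene. In non-cycling T cells the same list was higher, at 793, 724, 680 and 742 CPM. Ighm had a UMI in 80.8% of members, Igkc, an antibody light chain, in 97.0%, and Cd79b, a subunit of the B cell receptor, in 304 of 870. Cd79b stood at 34.2, 41.8, 27.4 and 27.1 CPM in members, at 34.8, 40, 27.1 and 27.9 CPM in non-cycling T cells and at 1324 to 1502 CPM in B cells. The source of these UMIs was not tested.

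Of Foxp3, Trdc, Cd8a and Cxcr5, Foxp3 was the most frequent among cycling T cells. A Foxp3 UMI was present in 348 of 870 members, at 42.3% and 35.7% at 30 °C and 40.4% and 42.1% at 4 °C. The groups overlapped, with means of 39.0% and 41.3% (exact permutation test over libraries, two-sided p = 1, where 0.33 is the smallest value that 2 against 2 libraries allow). They did not overlap among members with Cd3e, at 47.6%, 42.4%, 52.0% and 50% (difference 5.95 points, exact p = 0.33), or with members reduced to 11327 UMIs, at 34.9%, 33.8%, 36.9% and 38.1% (difference 3.15 points, exact p = 0.33). Trdc was found in 176 (20.2%), Cd8a, a chain of the CD8 coreceptor, in 65 (7.47%), and Cxcr5, the homing receptor of follicular helper cells, in 60 (6.90%). Cd4 had a UMI in 408 (46.9%).

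The lineage genes were compared between cycling and non-cycling T cells with all UMIs and at equal depth. With all UMIs and each cell put into a single class in the order Trdc, Foxp3, Cxcr5, Cd8a, Cd4, Trdc+ cells were 20.2% of members and 7.61% of non-cycling T cells, Cd8a+ cells 6.44% and 1.76%, Foxp3+ cells 39.3% and 39.2%, and Cxcr5+ cells 4.94% and 9.76%. With every cell reduced to 3622 UMIs, which left out 4 members and 483 non-cycling T cells, a Trdc UMI was found in 14.1% of members and 6.99% of non-cycling T cells as means of the 4 libraries. For Cd8a the shares were 5.84% and 1.91%. Foxp3 was found in 22.6% and 34.1%, and Cxcr5 in 2.60% and 9.20%. By library, the Trdc shares at this depth were 23.2%, 24.7%, 3.83% and 4.51% of members. In non-cycling T cells they were 9.22%, 11.2%, 5.04% and 2.53%. Members had the higher Trdc share in both 30 °C libraries and in 4 °C replicate 2, but the lower in 4 °C replicate 1. For Foxp3 the readings thus differed, with nearly equal shares over all UMIs and a lower share of members once UMIs were removed from the deeper members. These values describe cells that the rule separated, and carry no test. B cells at this depth, a guide to free RNA, gave 0.369% for Foxp3, 0.518% for Trdc and 0.182% for Cd8a. B cells make Cxcr5 themselves, with 23.9%.

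Of these classes, Foxp3+ cells were the largest among members with 342, followed by Trdc+ with 176, cells with none of the 5 genes with 143, Cd4+ cells without the others with 110, Cd8a+ with 56 and Cxcr5+ with 43. This order pools the temperatures. By library, Trdc+ members numbered 72, 74, 22 and 8, those with none 34, 30, 54 and 25, and Cd4+ members 35, 20, 33 and 22. In both 4 °C libraries Trdc+ members were thus fewer than those of the class with none and the Cd4+ class. Read as the cycling share within each class, the pooled order changed. Over all libraries 30.9% of 181 Cd8a+ T cells cycled, 23.4% of 751 Trdc+, 11.9% of 2883 Foxp3+, 8.89% of 1608 with none of the genes, 8.28% of 1328 Cd4+ and 6.10% of 705 Cxcr5+ cells. With the lineage genes read at equal depth and the cycling rule at full depth, the shares were 32.1% for Cd8a+, 21.8% for Trdc+, 16.0% for cells with none of the genes, 8.63% for Cd4+, 8.61% for Foxp3+ and 3.79% for Cxcr5+. These shares pool the temperatures. As means of libraries at equal depth, Trdc+ stood at 27.0% at 30 °C and 7.81% at 4 °C. At 4 °C, the class with none stood at 14.5%, Cd4+ at 7.33% and Foxp3+ at 7.28%. The order thus depended on depth, and the place of Trdc+ at equal depth also on temperature. Cells whose lineage UMIs were removed fell into the class with none. The Cd8a+ share varied most between libraries, from 15.8% (6 of 38 cells) and 42.9% at 30 °C to 34.8% and 27.1% at 4 °C, so that Cd8a+ and Trdc+ cells did not differ at 30 °C beyond that spread.

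**Figure D1:**
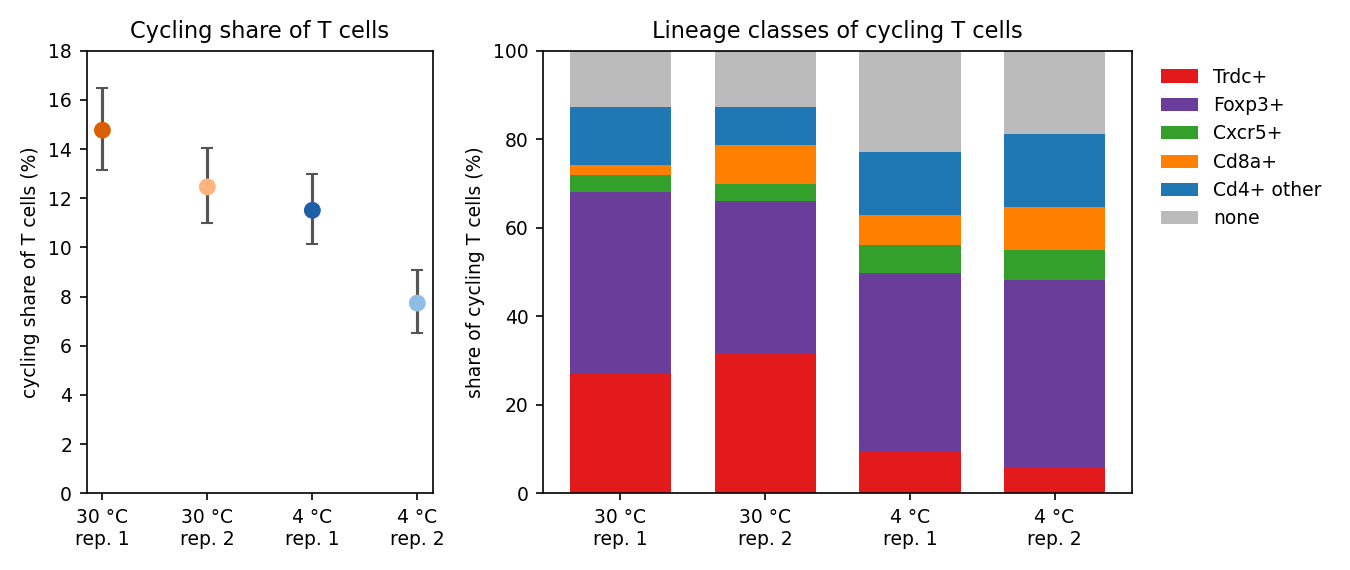
Cycling share of T cells in each library (percent of T cells, with 95% Clopper-Pearson intervals) and the lineage classes of the cycling T cells (percent of members). The cycling share ran from 14.8% in 30 °C replicate 1 to 7.73% in 4 °C replicate 2, and the Trdc+ class was smaller in both 4 °C libraries.

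Within the classes, further genes fitted the names in part. Of the 348 members with Foxp3, 99.4% had Trac, 71.3% Cd4 and 81.0% Gata3, and 39.1% each had Il1rl1, the IL-33 receptor, and Klrg1, an inhibitory receptor, both known from the regulatory T cells of fat, while 21.8% had Cd8b1, the other chain of CD8. Ikzf2, encoding Helios, stood at 748 CPM in Foxp3+ members against 41.8 to 342 CPM in the other classes. Of the 60 members with Cxcr5, 68.3% had Pdcd1, an inhibitory receptor of follicular helper cells, 75.0% had Cd4, and 15 of the 60 had Foxp3. Il17a stood at 191 CPM in Trdc+ members and at 0 to 8.66 CPM in the other classes. Of the 176 Trdc+ members 67.6% had Tcrg-C1, 61.9% had Trac, whose gene shares a locus with Trdc, and 20 had Cd4. At 4 °C 17 of 22 and 5 of 8 of them lacked Tcrg-C1, against 14 of 72 and 21 of 74 at 30 °C. The class with none of the genes differed from the others in its CD3 and Il17rb UMIs. Only 36 of its 143 cells had a Cd3e UMI, its median CD3 sum was 10 UMIs against 36 to 44.5 in the other classes, and 42.0% of its cells had Il17rb, the receptor for IL-25, against 2.33% to 17.0% in the other classes. Gata3 was found in 80.4% of them, against 80.7% of Foxp3+ and 77.3% of Trdc+ members.

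Chat, which encodes choline acetyltransferase and whose locus drives the sort marker, had a UMI in 399 members (45.9%), and in 57.2% of those with Foxp3 but 27.8% of those with Trdc. It stood at 48.3, 36.2, 60.0 and 55.0 CPM. Both 4 °C libraries were above both 30 °C libraries, but the log2 difference of 0.37 (SE 0.14) did not pass (edgeR, adjusted p = 0.142). Of 7 acetylcholine genes and 14 adrenergic and cAMP genes tested, 0 passed in either direction by edgeR or DESeq2, with 1 and 4 at an unadjusted edgeR p under 0.05.

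**Figure D2:**
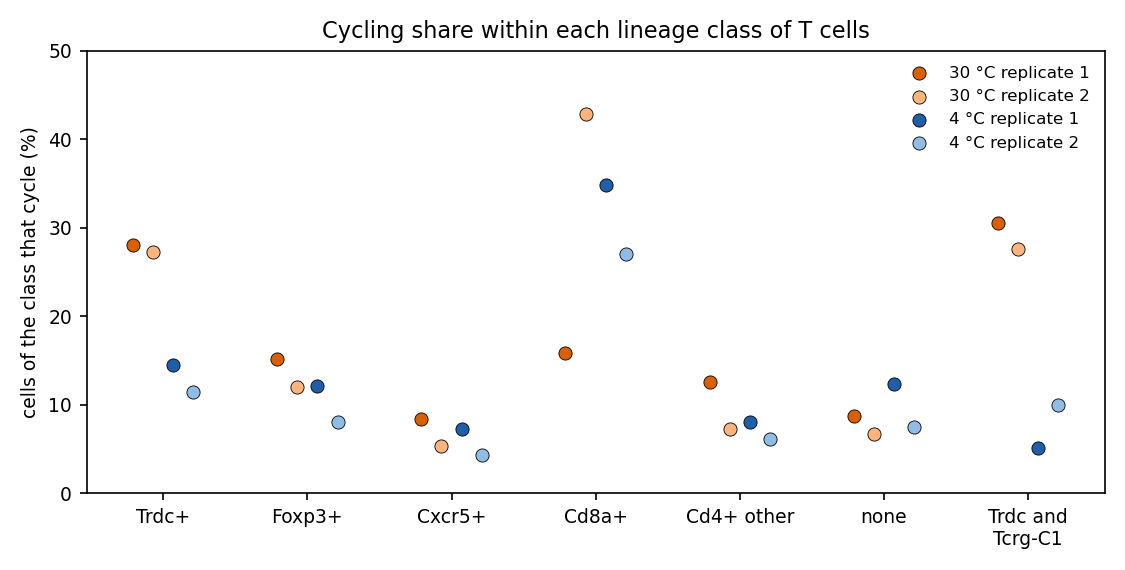
Share of T cells of each lineage class that met the cycling rule, by library (percent of the class). Trdc+ cells stood at 28.0% and 27.2% at 30 °C and at 14.5% and 11.4% at 4 °C, and the libraries of the temperatures overlapped in the other classes; the rightmost points are the Trdc+ cells that also hold a Tcrg-C1 UMI.

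The first comparison asked whether the share of cycling T cells differed between the 30 °C and 4 °C groups. They were 14.8% (95% Clopper-Pearson interval 13.2 to 16.5) and 12.5% (11 to 14) of T cells at 30 °C, while the 4 °C libraries gave 11.5% (10.2 to 13.0) and 7.73% (6.51 to 9.10). Both 4 °C libraries lay below both 30 °C libraries, though the intervals of 30 °C replicate 2 and 4 °C replicate 1 overlapped. The means were 13.6% ± 1.63 and 9.62% ± 2.67 (SD, n = 2 libraries each), a difference of -3.99 points (exact permutation test, p = 0.33, the smallest possible). Intervals cover counting error only. As a share of all kept cells they were 5.14%, 4.36%, 4.41% and 2.49%, where the groups overlapped (difference -1.30 points, exact p = 0.667). Among T cells with a Cd3e UMI, the cycling share was 15.1%, 12.3%, 10.5% and 7.45% (difference -4.75 points, exact p = 0.33).

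The largest difference in lineage between the temperatures lay in the gamma-delta cells. A Trdc UMI was present in 27.0% and 31.5% of members at 30 °C and in 9.36% and 6.02% at 4 °C, a difference of -21.5 points (exact p = 0.33). Among members with Cd3e the shares were 27.9%, 30.8%, 5.59% and 3.57%. With the stricter demand of both Trdc and Tcrg-C1, the gamma constant chain, members numbered 58 and 53 at 30 °C and 5 and 3 at 4 °C. Among all T cells with both genes (190, 192, 97 and 30), 30.5% and 27.6% cycled at 30 °C, and 5.15% and 10.0% at 4 °C. The means were 29.1% ± 2.07 and 7.58% ± 3.43 (SD, n = 2 libraries each, exact p = 0.33).

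The few Trdc+ members left at 4 °C were unlike those at 30 °C. Their median Trdc count was 1 and 3 UMIs, against 34.5 and 48.5 at 30 °C. Cd3e was found in 10 of 22 and 4 of 8 of them, against 65 of 72 and 61 of 74. With the lineage genes read at equal depth, the cycling share of Trdc+ cells was 27.0% ± 1.81 at 30 °C and 7.81% ± 0.269 at 4 °C (SD, n = 2 libraries each, exact p = 0.33). T cells with both Trdc and Tcrg-C1 also made up a smaller part of T cells, at 10.5%, 10.2%, 4.75% and 1.74%.

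The class with none of the 5 genes was larger at 4 °C. It made up 12.7% and 12.8% of members at 30 °C and 23.0% and 18.8% at 4 °C, a difference of 8.14 points (exact p = 0.33), and most of its cells had no Cd3e UMI. Among members with Cd3e it made up 3.43%, 4.04%, 6.70% and 7.14%. For the other lineage genes the differences were smaller. Cxcr5 was found in 5.24% and 5.53% of members at 30 °C and 8.09% and 10.5% at 4 °C (difference 3.92 points, exact p = 0.33). Cd8a was found in 2.62%, 11.5%, 7.23% and 10.5%, with 30 °C replicate 1 standing low. Cycling shares within the Foxp3+ class were 15.2% and 12.0% at 30 °C and 12.1% and 8.05% at 4 °C (exact p = 0.667), and did not overlap at equal depth (9.95% and 7.28% as means) or among cells with Cd3e (15.8%, 12.8%, 12.3% and 8.25%), each with exact p = 0.33. In the Cd4+ class the shares overlapped over all UMIs but not at equal depth (10.1%, 11%, 8.03% and 6.63%, exact p = 0.33). In the class with none they overlapped at both readings, and among cells with Cd3e they were 4.08%, 2.88%, 6.09% and 4.52% (exact p = 0.33).

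The second comparison asked which genes differed between temperatures within the cycling T cells, with UMIs summed per library and tested by edgeR. Of 10051 genes tested, 490 passed an adjusted p of 0.05 (4.88%), 225 higher at 4 °C (2.24%) and 265 lower (2.64%), and the median log2 difference over all genes was 0.00. A sum over members moves both when the mix of lineages changes and when a lineage changes its expression, and these cannot be told apart in it. The test was therefore repeated in narrower sets of members. Without cells carrying a Trdc or Tcrg-C1 UMI, 196 of 9453 genes passed (2.07%). In members with a Foxp3 UMI, 93 of 8327 passed (1.12%), and in members with a Cd3e UMI 546 of 9790 (5.58%). Each p-value measures the spread between 2 libraries of pooled mice per temperature. Adjusted p-values of genes below come from the quasi-likelihood F test of edgeR, adjusted by Benjamini-Hochberg across each fit's genes.

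Many genes of gamma-delta T cells were lower at 4 °C, where members with Trdc were fewer. Of 14 genes tested in the gamma-delta and IL-17 list, 11 were lower and 0 higher, with a median log2 difference of -2.53. In CPM the temperatures overlapped for the cytokine genes Il17a (54.8, 23.6, 64.5 and 8.13 CPM) and Il17f (5.74, 1.24, 3.85 and 0 CPM). By cells they did not overlap for Il17a, with a UMI in 25 of 267 and 19 of 235 members at 30 °C. At 4 °C it was found in 4 of 235 and 2 of 133, so its level in 4 °C replicate 1 came from 4 cells. Trdc stood at 575 and 796 CPM at 30 °C against 56.8 and 40.7 CPM at 4 °C (log2 difference -3.85, SE 0.16, adjusted p = 1.27e-11). Tcrg-C1 stood at 178 and 228 against 22.3 and 33.3 CPM (-3.01, adjusted p = 3.43e-10). Trdc lies on chromosome 14 (54142851 to 54148868, plus strand, GRCm38) and Tcrg-C1 on chromosome 13 (19214103 to 19217024, plus strand), both as constant-region genes of the receptor.

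Several further members of the list with known roles in these cells moved alike. Sox13, a transcription factor of IL-17-making gamma-delta cells, had a log2 difference of -3.07. Blk, a Src-family kinase, stood at 83.7, 89.4, 18.2 and 8.52 CPM (-2.64), and Cd163l1, a scavenger receptor of the same cells, at 119, 199, 25.9 and 24.8 CPM (-2.71). Zbtb16, encoding PLZF, had -2.60, but did not pass without 30 °C replicate 2 (adjusted p = 0.12). Among the largest falls of all genes were also Clnk, a signalling adaptor (-4.40), Tns4 (-3.61), Slc6a13 (-3.47), Npnt (-3.21), Il17re, a receptor subunit for IL-17C (-3.06), and Cryba4 (-3.05). Spon2 fell from 73 UMIs to 0, which is at least 17.9-fold lower with a floor of 3 UMIs over the 4 °C group. With Trdc or Tcrg-C1 cells left out, 4 of the list's genes had enough UMIs to be tested and 0 passed, with 1 at an unadjusted p under 0.05.

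**Figure D3:**
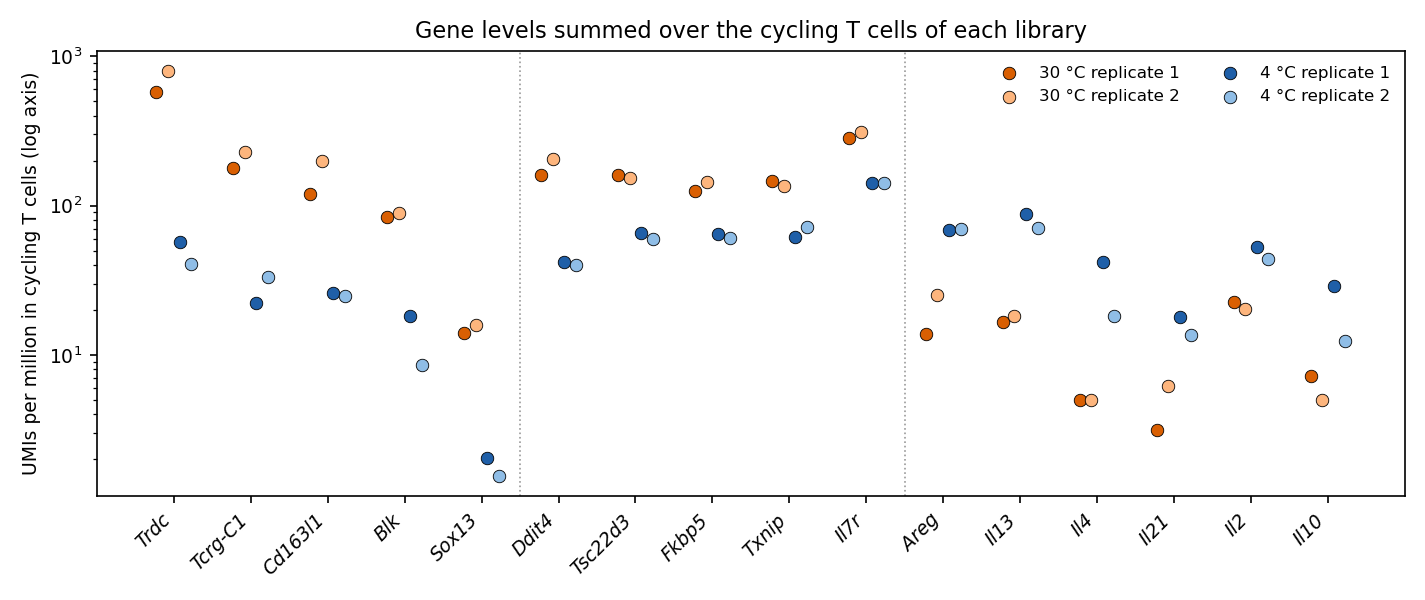
Levels of 16 genes summed over the cycling T cells of each library (CPM, log axis). Gamma-delta genes are on the left, other genes that were lower at 4 °C in the middle and cytokines on the right. For each gene shown, both 4 °C libraries lie on the same side of both 30 °C libraries.

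A second group of falls was found also without the gamma-delta cells. In the list of genes that glucocorticoids induce, 9 of 19 were lower at 4 °C and 1 was higher, with a median of -0.66. Zbtb16, 1 of the lower genes, is also in the gamma-delta list. Without Trdc or Tcrg-C1 cells 8 of 18 were lower and 0 higher, and among Foxp3 members 6 of 16 were lower and 1 higher. Ddit4, an inhibitor of the growth kinase mTORC1, stood at 161 and 204 CPM at 30 °C against 42.0 and 39.9 CPM at 4 °C (log2 difference -2.23, SE 0.13, adjusted p = 1.96e-09). Without Trdc or Tcrg-C1 cells its log2 difference was -2.28 and among Foxp3 members -2.11, both past the threshold. It was lower in each of the 6 lineage classes, for example at 183 CPM against 45.3 CPM in Foxp3+ and 334 against 51.7 CPM in Cxcr5+ members, with libraries summed.

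Tsc22d3, which encodes the glucocorticoid-induced leucine zipper, stood at 161, 152, 65.7 and 59.6 CPM (log2 difference -1.39, SE 0.10, adjusted p = 6.55e-08). Klf9, a Krüppel-like factor, had -1.86, but missed the threshold without 30 °C replicate 2 (adjusted p = 0.057), and Pik3ip1, an inhibitor of PI3 kinase, had -2.31. Named after their values were seen, Fkbp5, a chaperone of the glucocorticoid receptor, stood at 124, 144, 64.1 and 60.8 CPM (-1.18), and Il7r, the IL-7 receptor alpha chain, at 282, 311, 141 and 142 CPM (-1.15). Both lay lower in all members and in Foxp3 members (-1.19 and -1.74, both past the threshold). Nr3c1, which encodes the receptor itself, stood at 60.0, 65.4, 70.9 and 84.0 CPM and did not pass. The higher gene of the list, also named after its value was seen, was Nfkbia, the NF-kappa-B inhibitor (0.38).

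In the list of FOXO targets and quiescence genes 7 of 16 were lower, 1 was higher and 8 did not pass (median -0.38), with 9 lower and 0 higher without Trdc or Tcrg-C1 cells. It shares Ddit4, Tsc22d3, Pik3ip1 and Il7r with the list above. The higher gene was Tcf7, a transcription factor of resting and memory T cells named after its value was seen (0.45). In the list of inhibitors of the cycle 3 of 16 were lower and 0 higher, with a median of 0.14. Txnip, an inhibitor of thioredoxin and glucose uptake, stood at 146, 136, 61.8 and 71.6 CPM (-1.17, adjusted p = 6.93e-07), and Pdcd4, a translation inhibitor, had -0.87. Zfp36l2, an RNA-binding protein that destabilises messages, stood at 609, 591, 365 and 357 CPM (-0.82) and was lower in Foxp3 members as well (-1.17). Klf2, named after its values were seen, stood at 570, 589, 538 and 509 CPM and did not pass.

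Cytokine messages were higher at 4 °C. Of 15 tested, 10 were higher and 0 lower, with a median log2 difference of 1.08. Among members without Trdc or Tcrg-C1, 8 of 13 were higher, among members with Cd3e, 9 of 14, and among members with Foxp3, 2 of 8 (median 0.60). Il13, whose product drives mucus and alternative macrophage activation, stood at 16.7 and 18.2 CPM at 30 °C against 88.4 and 70.5 CPM at 4 °C (2.13, SE 0.15, adjusted p = 3.02e-08). In members with a Cd3e UMI the log2 difference was 3.22 (adjusted p = 0.0018). Of all its UMIs, 68.0% lay in the class with none of the lineage genes, which was larger at 4 °C (above), and 20.2% in Trdc+ members. Within the class with none Il13 stood at 95.5, 55.0, 285 and 314 CPM, so that both 4 °C libraries were higher there as well. Of the 110 members with an Il13 UMI, 30 had Cd3e and 60 had Trac. Gata3 (109, 94.4, 136 and 120 CPM) and Il17rb (11.5, 13.2, 15.8 and 13.6 CPM), named after their values were seen, did not pass.

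Areg and Il10 lay mostly in the Foxp3+ class. Areg encodes amphiregulin, a growth factor of tissue repair, and stood at 13.7, 25, 68.5 and 69.3 CPM (log2 difference 1.76, SE 0.18, adjusted p = 5.56e-06). Of its UMIs 60.4% were in Foxp3+ members, where it stood at 16.7, 40.8, 112 and 95.6 CPM, and among members with a Foxp3 UMI it passed with 1.91 (adjusted p = 0.0017). Il10 encodes an inhibitory cytokine and stood at 7.22, 4.97, 29.0 and 12.4 CPM (1.77), with 58.0% of UMIs in Foxp3+ members. It passed in neither the fit without 30 °C replicate 2 (adjusted p = 0.068) nor that without 4 °C replicate 1 (0.12).

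Il4 and Il21, cytokines of helper cells that act on B cells, were carried by few cells. Il4 stood at 5.00, 4.97, 41.8 and 18.2 CPM (log2 difference 2.60, SE 0.31, adjusted p = 2.84e-05). In 4 °C replicate 1 a single cell held 112 of its 206 UMIs, and without that library the log2 difference was 1.76 and still passed. Il21 stood at 3.15, 6.21, 17.8 and 13.6 CPM (1.71), with 44.1% of UMIs in Cd4+ members without the other genes. Il2, the main growth factor of T cells, stood at 22.8, 20.3, 53.1 and 43.8 CPM (1.11).

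**Figure D4:**
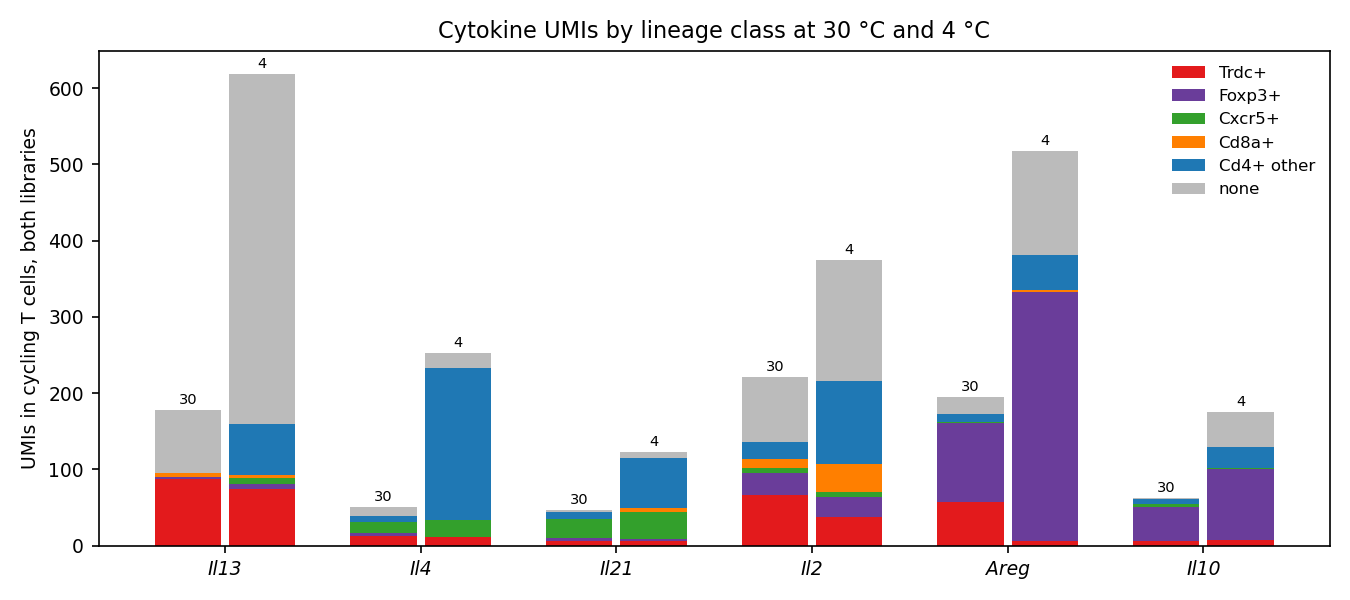
UMIs of 6 cytokine genes over the cycling T cells of both libraries of a temperature, stacked by lineage class (y axis, UMIs; left bar of each pair 30 °C, right bar 4 °C, not scaled for the number of cells). Cells with none of the lineage genes held 83 Il13 UMIs at 30 °C and 458 at 4 °C, and Foxp3+ cells held 104 and 326 Areg UMIs. Cd4+ cells without the other genes held 8 and 199 Il4 UMIs, and most of the 199 lay in a single cell of 4 °C replicate 1 (above).

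Early response genes were also higher in part, with 10 of 23 higher and 1 lower (Zfp36l2, above) and a median of 0.43. Egr3, a transcription factor that follows receptor signals, stood at 6.85, 5.17, 33 and 13.9 CPM (1.97), and Nr4a3, a nuclear receptor of the same kind, at 3.70, 5.17, 25.1 and 8.13 CPM (1.95). Egr1 (8.33, 12.8, 35.9 and 8.52 CPM) and Egr2 (3.70, 3.52, 11.8 and 4.26 CPM), named after their values were seen, stood high in 4 °C replicate 1 alone. Without 4 °C replicate 1 the difference of Nr4a3 was 0.77 and did not pass (adjusted p = 0.35). Without Trdc or Tcrg-C1 cells 8 of 23 genes were higher and 1 lower, among members with Cd3e 7 and 1, and among Foxp3 members 1 of 19 was higher and 1 lower. The lists of costimulatory receptors (4 of 15 higher, 0 lower), follicular helper genes (4 of 13, 0 lower) and interferon response (4 of 14, 0 lower) held no lower gene over all members. Without Trdc or Tcrg-C1 cells 1 of 15 costimulatory genes was higher and 0 lower, 2 of 12 interferon response genes were higher and 0 lower, and of 13 follicular helper genes 3 were higher and 1 lower, the lower being Slamf6, a SLAM-family receptor named after its value was seen (-0.41). DESeq2 passed 1 interferon response gene. Some genes of this list, named after their values were seen, stood low in 30 °C replicate 2 alone, such as Isg15, a ubiquitin-like protein, at 39.1, 10.1, 30.2 and 54.6 CPM, and Ifit1, an RNA-binding protein, at 14.6, 0.62, 4.66 and 8.13 CPM. Icos, a costimulatory receptor, stood at 285, 254, 419 and 447 CPM (0.60), and passed without Trdc or Tcrg-C1 cells (0.33) and among Foxp3 members (0.46).

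Several of the largest rises were carried by few cells. Ddc, which makes dopamine and serotonin from their precursors, rose by 3.57 with 3, 3, 17 and 36 UMIs, mostly in cells with none of the lineage genes, and did not pass without either 30 °C library. They lay in 1, 2, 5 and 6 cells, and among members with Cd3e the log2 difference was 3.69 (adjusted p = 0.0057). Pgam2, a muscle phosphoglycerate mutase, rose by 3.36, with 24 of 24 UMIs of 4 °C replicate 2 in 1 cell. Ccl4, a chemokine of cytotoxic cells, stood at 2.41, 12.6, 20.9 and 60.4 CPM (2.27) in 3, 9, 13 and 5 cells, and Eomes, a factor of cytotoxic and innate-like cells, at 4.07, 2.69, 10.9 and 18.6 CPM (1.96) in 3, 7, 5 and 16 cells. Il13 (2.13, above), by contrast, lay in 26, 13, 51 and 20 cells. Cdk5r1 (2.12), in 4, 5, 19 and 8 cells, and Tgif2 (1.99), in 5, 7, 18 and 13 cells, passed in only 1 of the 4 fits that left out a library, and not without Trdc or Tcrg-C1 cells (1.74 and 2.08, adjusted p = 0.12 and 0.070).

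Of 19 chemokine and homing receptors 6 were lower and 0 higher over all members. Among members with Cd3e 7 were lower and 1 higher, and in non-cycling T cells 1 of 20 was lower and 2 were higher. Cxcr4, the receptor for CXCL12, stood at 165, 172, 105 and 106 CPM (log2 difference -0.76, adjusted p = 3.94e-05) and was lower in Foxp3 members too (-0.62). Ccr2 (-0.73) and Cxcr6 (-0.66) fell over all members, but among Foxp3 members stood at 0.10 and -0.44, where neither passed. Without Trdc or Tcrg-C1 cells Cxcr6 turned to 0.46 (adjusted p = 0.054) and Ccr2 stood at -0.34 (adjusted p = 0.21), and 4 of 19 genes of the list were lower. Both missed the threshold without 30 °C replicate 2, with adjusted p of 0.053 and 0.054. Cirbp, a cold-inducible RNA-binding protein, stood at 255, 199, 132 and 97.2 CPM and was lower (-1.04), and Rbm3, its relative, was lower by a smaller step (-0.38) that did not pass without either 30 °C library.

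The list values of the division programme are partly set by the rule, which asked for Top2a and Birc5 in every member. Members spent 0.460%, 0.482%, 0.467% and 0.493% of their UMIs on the S phase list (exact p = 0.667), with no separation of the temperatures. For the list of G2 and mitosis the shares were 1.67%, 1.60%, 1.80% and 1.74%, where both 4 °C libraries lay above both at 30 °C (exact p = 0.33). In this list 4 of 52 genes were higher and 0 lower (median 0.16), with 17 at an unadjusted p under 0.05. They were Aurka, a mitotic kinase (0.42), Hmmr, a spindle protein (0.41), Kif20b, a kinesin of cell division (0.36), and Cenpf, a kinetochore protein (0.31). None of the 4 passed without either 30 °C library, and none passed without Trdc or Tcrg-C1 cells, where they stood at 0.34, 0.32, 0.28 and 0.28 and the list's 1 call was Cenpe, a mitotic kinesin named after its value was seen (0.38). DESeq2 passed 1 gene of this list. Of 43 S phase genes 1 was lower, Gmnn, which encodes the replication licensing inhibitor geminin (-0.34), and of 20 genes of nucleotide synthesis 0 passed by edgeR or DESeq2, with 6 at an unadjusted edgeR p under 0.05. Ccnd2, the cyclin D2 of early G1, stood at 124, 94.0, 176 and 196 CPM (0.68) and was higher without Trdc or Tcrg-C1 cells (0.52) and among Foxp3 members (0.59).

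For the rule's own genes levels are given as a description. Top2a stood at 743, 724, 889 and 1020 CPM and Birc5 at 754, 676, 767 and 720 CPM. Cd3e stood at 394, 365, 312 and 385 CPM. Foxp3 (88.9, 80.1, 79.7 and 103 CPM) did not pass with a log2 difference of 0.01, and neither did Cxcr5 (0.81, adjusted p = 0.113) or Cd8a (0.53, adjusted p = 0.288). Cd4 stood at 55.2, 42.0, 68.3 and 82.9 CPM (0.53, adjusted p = 0.022), and lost the call without 30 °C replicate 2 and without Trdc or Tcrg-C1 cells (0.19, adjusted p = 0.48). Of 13 genes of the T cell receptor list 3 were higher and 4 lower over all members, and without Trdc or Tcrg-C1 cells 0 of 11 passed by edgeR, with 3 at an unadjusted p under 0.05.

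The third comparison asked whether the difference between temperatures was particular to dividing cells, and used the interaction with the non-cycling T cells of the same 4 libraries. In non-cycling T cells 571 of 11184 genes passed (5.11%). The difference itself passed for 179 of 11292 genes (1.59%), 64 with a positive and 115 with a negative interaction. These sums, too, move with the mix of lineages, which cannot be told apart in them from changes of expression. Trdc+ cells were 27.0%, 31.5%, 9.36% and 6.02% of members and 10.3%, 11.4%, 5.75% and 3.05% of non-cycling T cells. Without Trdc or Tcrg-C1 cells 45 of 10960 interactions passed (0.411%). Trdc fell by 1.67 on the log2 scale in non-cycling T cells against 3.85 in cycling T cells (interaction -2.22, SE 0.14, adjusted p = 2.24e-09). Ddit4 stood at 204, 176, 74.2 and 83.6 CPM in non-cycling T cells (-1.32), and its fall was larger in cycling T cells (interaction -0.90, adjusted p = 0.0031). Fkbp5 went the other way, at 164, 166, 49.2 and 49.7 CPM in non-cycling T cells (-1.79), so that its fall was smaller in cycling T cells (interaction 0.61, adjusted p = 0.0082).

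For Tsc22d3 (-1.39 and -1.65), Il13 (2.13 and 2.21), Areg (1.76 and 1.40) and Txnip (-1.17 and -1.53) the interaction did not pass, with adjusted p of 0.394, 0.896, 0.462 and 0.232. In the glucocorticoid list 10 of 19 genes were lower and 0 higher in non-cycling T cells, and the interaction passed for 3 of 19, 2 positive and 1 negative. In the cytokine list 12 of 15 were higher there, and the interaction passed for 2. Of the named cytokines Il4 rose by 0.87 in non-cycling T cells and by 2.60 in cycling T cells (interaction 1.69, adjusted p = 0.0095).

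**Figure D5:**
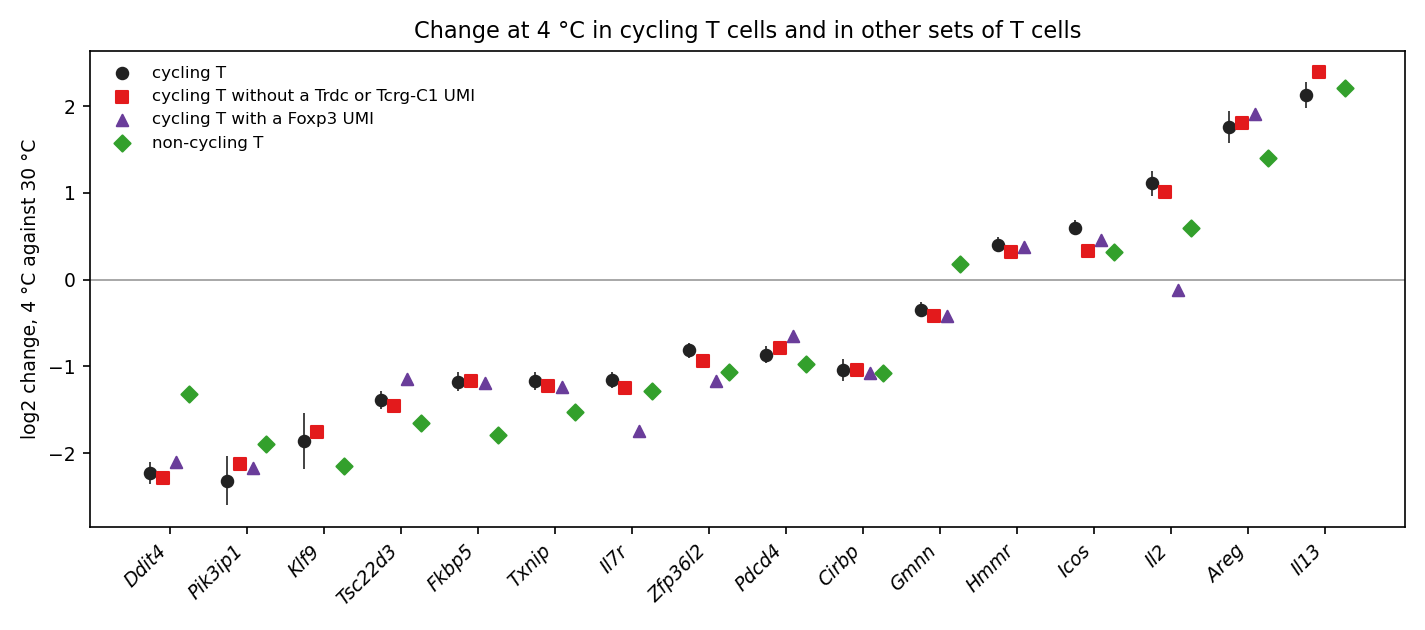
Log2 difference between 4 °C and 30 °C of selected genes in cycling T cells, in narrower sets of them and in non-cycling T cells, each from its own edgeR fit (bars on the black points are the SE; the other sets are drawn without bars). Ddit4 lies at -2.23 in all cycling T cells, -2.28 without Trdc or Tcrg-C1 cells, -2.11 with a Foxp3 UMI and -1.32 in non-cycling T cells.

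Compared with the 458 cycling B cells of the same libraries, chosen by the same division genes, the difference between temperatures differed for 6 of 10212 genes (0.0588%). Rgcc, a regulator of the cell cycle, stood at 111, 127, 241 and 216 CPM in cycling T cells and at 81.4, 121, 39.8 and 68.7 CPM in cycling B cells (interaction 1.88, SE 0.25, adjusted p = 0.0051). Blk, which B cells also use, fell in T cells and stood at 112, 120, 106 and 108 CPM in cycling B cells (interaction -2.47, adjusted p = 0.0012). Herpud1, a gene of the unfolded protein response, stood at 51.6, 47.8, 50.1 and 56.5 CPM in cycling T cells and at 262, 220, 104 and 83.2 CPM in cycling B cells (interaction 1.51, adjusted p = 0.0058).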

How the data were processed

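The authors sorted eGFP+ cells, made 10x 3′ libraries and deposited UMI counts per gene and cell, unnormalized whole numbers, in 1 matrix for each of the 4 libraries. Per the file headers and the study's methods the counts came from Cell Ranger 3.0.0, while the submitters' processing notes name 3.1.0, with STAR, GRCm38 (mm10) and Seurat 4.2.0. Which version made the matrices was not settled. The 4 libraries held 325817466 UMIs over 26654 barcodes.

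Cells were kept above 200 and below 5000 genes, at under 7.5% mitochondrial UMIs, the limits of the study's methods, which as worded there keep cells at a limit itself. Members were then picked by the rule, and lineage classes, lists and comparisons were chosen with earlier results of these data known. Counts were summed per library over members and tested with edgeR 4.0.16 (TMM, filterByExpr, quasi-likelihood F test, Benjamini-Hochberg adjustment, threshold 0.05, R 4.3.3), 2 libraries against 2. CPM is UMIs per 1000000 of the summed class. Interactions were fitted over the sums of both classes, with each library as a block. For shares, the 2 temperatures were compared by two-sided exact permutation of the libraries (scipy 1.17.1). For equal depth, UMIs were drawn without replacement to 3622 a cell (T cells and B cells) or 11327 (members), and shallower cells were left out. The steps were tested on simulated data with known changes. The labels do not say whether replicate numbers pair the libraries, and no block for the number was used. Deviations of same-numbered libraries had a correlation of 0.0329 over 10051 genes, which with 2 libraries per temperature cannot exclude a shared batch.

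The genes named are the 10 largest rises and 10 largest falls among genes past the threshold, with at least 40 UMIs and both 4 °C libraries on 1 side of both at 30 °C, leaving out predicted genes. To these come up to 4 passing genes of each of 24 lists, or up to 2 of the highest level where none passed, the rule and lineage genes, Chat, and the 5 largest of each interaction. Some genes that meet these criteria are not reported here. Other genes named were chosen after their values were seen. Alternatives were DESeq2 1.42.0, other scaling, filters, cell limits and rules, doublet removal (Scrublet, where the threshold of 4 °C replicate 2 was set to the mean of the others), a Wilcoxon test over cells, each library left out, and narrower sets of members. The sets with a Cd3e UMI, the fits without immunoglobulin genes, the non-cycling fit without Trdc or Tcrg-C1 cells and the interaction in cells with a Foxp3 UMI were added after seeing the data. Gene positions are from GENCODE M21 and promoters from RefSeq GRCm38.p6.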

Additional observations from a re-analysis of the deposited data

Results flagged for a closer look

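Differences between cycling and non-cycling T cells in the response to 4 °C were tested as interactions in edgeR (log2 effect in cycling minus that in non-cycling T cells, adjusted p under 0.05 over 11292 genes). Of the gamma-delta and IL-17 list, Trdc differed by -2.22, Tcrg-C1 by -1.68, Cd163l1 by -1.80, Sox13 by -1.92 and Blk by -1.37. Outside that list, Il17re differed by -2.40 and Cryba4 by -1.86. Each was a larger fall in the sum over cycling cells, where changes of lineage mix and of expression cannot be told apart (above). Ddit4 differed by -0.90 and fell in both. Gmnn (-0.54), Ccr2 (-0.55), Cxcr6 (-0.55) and Gapdh (-0.26) were lower at 4 °C in cycling cells, while in non-cycling cells their log2 differences were 0.18, -0.21, -0.14 and -0.041, none of which passed. Fkbp5 differed by 0.61, a smaller fall in cycling cells.

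Among genes with a larger rise in cycling cells, Il4 differed by 1.69, Eomes by 1.71, Ddc by 3.16, Ly6a by 0.39 and Rgcc by 0.43. Most Il4 UMIs of the cycling T cells in 4 °C replicate 1 lay in a single cell, and Eomes and Ddc lay in few cells (above). Several of the largest differences rested on few cells or 1 library. Gzma, a granzyme, differed by -3.83, with 165, 214, 184 and 4.65 CPM in cycling T cells, so that 4 °C replicate 2 alone stood low, and 1.83, 5.78, 47.9 and 4.22 CPM in non-cycling T cells. Klra5 had 75 UMIs in the cycling T cells of 30 °C replicate 2 and none in those of the other libraries, which is at least 18.4-fold lower at 4 °C with a floor of 3 UMIs over the group; its fitted difference of -11.66 depends on the prior count and gives no size. C3 (5.97) and Dcn (5.58) each had most of their UMIs in 1 cell of 4 °C replicate 1, and neither passed without that library. Pex26 differed by 3.94 on 15 UMIs at 4 °C against 2 at 30 °C, which gives 10.2 with a counting interval of 2.38 to 92.0.

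Against cycling B cells, the interactions of Blk (-2.47), Rgcc (1.88), Cd9 (1.79), Ptpn22 (1.53) and Herpud1 (1.51) passed. Ptpn22 stood at 170, 135, 138 and 137 CPM in cycling T cells and at 116, 65.4, 33.7 and 23.6 CPM in cycling B cells.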

How the results depend on the processing

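With 2 libraries per temperature every result rests on few samples, and leaving out a library leaves 1 lone sample that is assumed to vary like the others. The count of genes that passed in cycling T cells (490) was 202 with DESeq2 (genes without an adjusted p left out), 782 with a replicate block, 196 without Trdc or Tcrg-C1 cells, 93 with a Foxp3 UMI, 2 with a Cxcr5 UMI and no Foxp3 UMI, and 238 by a Wilcoxon test over cells, and 155 to 854 with a library left out (155 without 30 °C replicate 2, 230 without 30 °C replicate 1, 669 without 4 °C replicate 2, 854 without 4 °C replicate 1). The Wilcoxon test treats the cells of a library as independent, so its count does not measure the spread between libraries. The replicate block changed no call of the 77 genes followed. In non-cycling T cells the count (571) was 310 with DESeq2, 1322 with no filter on low counts, and 347 to 866 with a library left out. The count of interactions with non-cycling T cells (179) was 52 with DESeq2 (which gave no adjusted p for 10070 of 11292 genes), 323 with no filter, 78 with no upper limit on genes, 87 with at least 2 UMIs of Top2a and Birc5, 45 without Trdc or Tcrg-C1 cells, 19 with a Foxp3 UMI (chosen after seeing the data), and 24 to 235 with a library left out, the lowest without 4 °C replicate 1 and 35 without 4 °C replicate 2. For cycling B cells (6) it was 45 with no filter, 9 with no upper limit on genes, 18 with a mitochondrial limit of 15%, 33 with at least 2 UMIs, 13 with Mki67 added, 23 without doublets, and 19 to 203 with a library left out (174 and 203 without a 30 °C library).

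With a library left out, differences in percentage points ran from -5.88 to -2.11 for the cycling share of T cells, -2.26 to -0.341 for that of kept cells, -1.06 to 5.52 for Foxp3, 2.70 to 5.14 for Cxcr5, -23.8 to -19.3 for Trdc and -2.61 to 6.26 for Cd8a. The Cxcr5 difference was 2.11 at equal depth, and that of Trdc -24.8 with a Cd3e UMI. The values followed under the alternatives were the log2 differences of the 77 genes and also interactions, such as that of Dcn. Of these 1519 values, 1206 kept direction and side of the threshold, 292 kept direction only and 21 turned. With no upper limit on genes these numbers were 49, 37 and 1. DESeq2 gave 58, 29 and 0, and the Wilcoxon test over cells 35, 42 and 0. Among Foxp3 members the values that turned were Rora 0.024, Il2 -0.12, Hlf -0.060, Cd28 -0.12 and Ccr2 0.10. In members with Cxcr5 and no Foxp3 they were Il21 -0.067, Sh2d1a -0.19, Aurka -0.30, Hmmr -0.77, Kif20b -0.27, Cenpf -0.92, Cd27 -0.10, Ifi27l2a -0.37 and Trp53inp1 0.34, and without Trdc or Tcrg-C1 cells Cd163l1 0.87, Klrk1 0.25, Cd28 -0.016 and Cxcr6 0.46. The interaction of Dcn was -0.041 (without 30 °C replicate 1) to 7.87 (without 30 °C replicate 2) with a library left out, -0.94 with no upper limit on genes and -0.0030 without doublets. Beyond the narrower sets of members, the causes were not tested.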

Other observations

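Metabolic and clock genes gave further values for the cycling T cells. In the glycolysis list 2 of 16 genes were lower at 4 °C and 0 higher. Eno1, an enolase, stood at 347, 381, 293 and 283 CPM (edgeR, log2 difference -0.42), and did not pass without 30 °C replicate 2 (adjusted p = 0.27). Gapdh passed over all members (-0.28) but not without either 30 °C library or 4 °C replicate 2. Of 13 clock genes tested, Nr1d1, a repressor of the clock (-2.05), and Cry1 (-0.83) were lower and Hlf was higher (0.61), and each lost its call in at least 1 fit without a library, while DESeq2 passed 0 genes of this list (4 at an unadjusted p under 0.05) and edgeR passed 0 of 11 without Trdc or Tcrg-C1 cells (3 at an unadjusted p under 0.05). Bbc3, which promotes cell death downstream of p53, stood at 16.5, 25.2, 8.72 and 12.0 CPM (-1.14), and did not pass without 30 °C replicate 2 (adjusted p = 0.25). In the remaining lists, 2 of 17 genes of the Foxp3 lineage were higher and 1 lower, 1 of 14 of the CD8 and cytotoxic lineage were higher and 1 lower, 2 of 23 cyclins and their partners were higher and 0 lower, 1 of 14 genes of IL-2 signalling was higher and 0 lower, 1 of 14 genes of the cold and heat responses was higher and 3 lower, and 0 of 15 genes of cell death were higher and 2 lower.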
